A study of Caenorhabditis elegans with 6 samples.

Results

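The nuclear RNAi pathway of Caenorhabditis elegans was followed through the small RNA counts on its nrde (nuclear RNAi defective) genes: nrde-1 (C14B1.6, WBGene00007577), nrde-2 (T01E8.5, WBGene00011333), nrde-3 (R04A9.2, WBGene00019862) and nrde-4 (F45E4.10, WBGene00001584). They were chosen by locus, with earlier results of these data known, and all 4 were found among 45510 genes, of which 20524 are protein-coding. Small RNAs came from whole larvae at the L3 stage in 6 libraries, 1 per group. All strains carried eri-1(mg366) and the GFP::NRDE-3 fusion: the control had nothing further, and the mutants also carried susi-2(ust49) or susi-3(ust51). Each of the 3 genotypes gave 1 library of total small RNA and 1 of RNA that came down with NRDE-3 in an immunoprecipitation (IP) through the FLAG tag of the fusion. All samples are labelled with a temperature of 15 °C, although strains were kept at 20 °C according to the growth protocol. They do not say which promoter drives the fusion, how many copies are present or whether the original nrde-3 locus is intact, so counts on nrde-3 add up all copies.

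In nuclear RNAi, siRNAs made antisense to a transcript are loaded onto a nuclear Argonaute and guide it to nascent RNA, where RNA polymerase II elongation is inhibited and repressive histone marks are laid down. NRDE-3 is the Argonaute that does this in somatic cells, and it enters the nucleus only when it carries an siRNA. It recruits NRDE-2, a conserved nuclear protein, to nascent RNA, and NRDE-1 and NRDE-4 act after it, with NRDE-4 needed to bring NRDE-1 to chromatin. In eri-1 mutants NRDE-3 lacks most of its usual endogenous siRNA partners, and the series title concerns siRNAs antisense to ribosomal RNA. The susi genes are known as suppressors of such siRNAs.

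For each gene, sense counts are fragments of the mRNA strand and antisense counts are reads of the opposite strand, which include siRNAs. Read lengths are not in the tables, so siRNAs are not separated from other antisense fragments. Library totals were 9122066 to 10755494 counts, and values are given as counts or as counts divided by the library total and multiplied by 1000000 (CPM) with 95% intervals for counting error only. With 1 library a group, differences between genotypes have no replicates behind them and no p-value is given for them. IP and total libraries form 3 pairs by genotype, and edgeR's quasi-likelihood test of genotype plus kind of library, which leaves 2 residual degrees of freedom, gave p-values for IP against total, adjusted by Benjamini-Hochberg over all genes of a strand. Ratios are between shares of all counts in 2 libraries, and a gene with at least 50 counts over both is called higher or lower when its log2 ratio of CPM + 1 is at least 1 in size, that is, 2-fold. In whole larvae, fewer cells of a type and less RNA per cell cannot be told apart. Adult yolk protein (vitellogenin) genes summed to 20.8 CPM of sense fragments in the control total library against 0.669 in susi-2 and 8.54 in susi-3, and to 455, 67.2 and 166 CPM in the IPs. Germline markers summed to 32.9 to 38.8 CPM in the total libraries and to 317, 97.8 and 167 CPM in the IPs of the control, susi-2 and susi-3. The part of such stage or tissue differences in the results below was not tested. Of 28 major sperm protein genes, 7, 3 and 6 had a sense count in the total libraries of the control, susi-2 and susi-3. In the IPs 28, 19 and 20 did, with sums of 17.3, 3.29 and 4.63 CPM. All 8 muscle, 8 intestinal and 8 neuronal markers were detected in every library, but their levels differed. In total RNA of the control, susi-2 and susi-3 muscle markers summed to 561, 948 and 1170 CPM. Intestinal markers summed to 1347, 1884 and 1308 CPM and neuronal markers to 65.3, 120.5 and 127 CPM. In the IPs the sums were 2645, 2332 and 3424 CPM for muscle, 1610, 1187.5 and 1899 CPM for intestine and 124.5, 118 and 121 CPM for neurons.

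Fragments of the nrde-3 mRNA were the highest of all protein-coding genes by count in the control IP and second in both mutant IPs. The rank in the control IP was known when the genes were chosen, so it is a description and not an independent result. In the total libraries nrde-3 had 442, 1146 and 571 sense counts (control, susi-2, susi-3), which placed it at ranks 478, 242 and 424 of 20524 by count, not corrected for length. In the IP libraries it had 55056, 35725 and 40741. The 3 IP libraries were thus all far above the 3 total libraries. The share of all genes separated in this way was not counted. As levels these were 42.05, 109 and 58.02 CPM in total RNA and 5119, 3916 and 4285 CPM in the IPs. Of all sense counts on protein-coding genes, nrde-3 took 0.0378%, 0.0651% and 0.0419% in total RNA and 2.01%, 1.95% and 1.81% in the IPs. Its share of the mRNA fragments was thus at least 1.81% in each IP and at most 0.0651% in each total library.

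**Figure D1:**
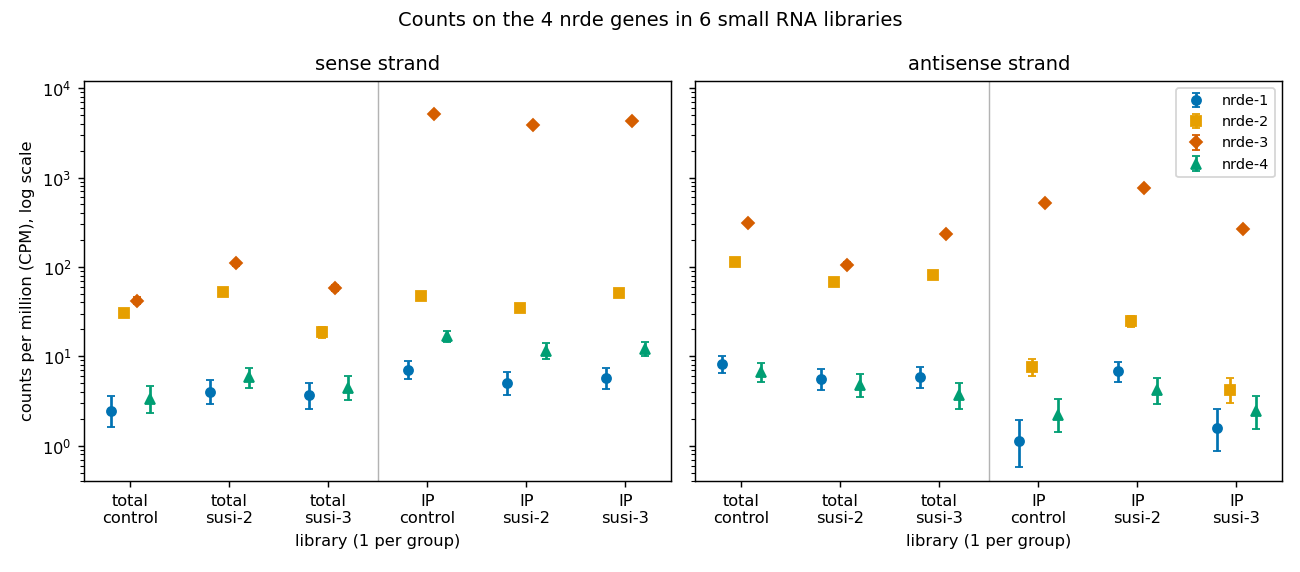
Levels of the 4 nrde genes in each library, in CPM on a log scale, sense strand at the left and antisense strand at the right, with bars for the 95% Poisson interval of the count. The nrde-3 sense level lies at 3916 to 5119 CPM in the IPs against 42.05 to 109 CPM in total RNA, and its antisense level is the highest of the 4 genes in every library.

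The IP-to-total ratio asks which fragments were recovered with the tagged protein. No IP from animals without the fusion is among the 6 libraries, so RNA bound by NRDE-3 and RNA carried over in the pull-down cannot be told apart. For nrde-3 sense fragments the ratio was 122 in the control (111 to 134), against 35.8 for susi-2 (33.7 to 37.98), with susi-3 between them at 73.9 (68.01 to 80.4). The ratio in susi-2 was 0.294 times that of the control (0.263 to 0.328), and in susi-3 0.607 times (0.536 to 0.687). Other scalings gave 0.324 to 0.570 for susi-2, and for susi-3 turned the direction with median-of-ratios (1.035) and microRNA (1.23) scaling. Part of that lay in the total libraries, where nrde-3 sense counts were highest in susi-2. By log2 ratio nrde-3 ranked 11 of 7713 protein-coding genes in the control, 27 of 7505 in susi-2 and 19 of 7314 in susi-3. The ratio depends on the scaling: relative to sense counts on protein-coding genes alone it was 53.2, 29.9 and 43.2. Over the 3 pairs the nrde-3 sense log2 difference, IP minus total, was 6.10 ± 0.656 (SE), with an edgeR adjusted p of 2.5e-18. Values were higher in 3 of 3 pairs. This p-value pools the spread over genes, and the 3 pairs are different genotypes, so it does not measure spread among replicate animals. It also rests on sense counts whose height in the control IP was known beforehand. The alternative fits with edgeR and DESeq2 gave adjusted p of 4.56e-39 to 9.84e-06.

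Fragments of the other nrde genes were far less recovered. For nrde-4, sense counts were 35, 61 and 44 in the total libraries of the control, susi-2 and susi-3 and 180, 105 and 115 in the IPs, with IP-to-total ratios of 5.03 (3.48 to 7.44), 1.98 (1.43 to 2.76) and 2.71 (1.896 to 3.92). Relative to protein-coding sense counts the nrde-4 ratio was 2.19 in the control and 1.58 in susi-3, and its single transcript feature with the most counts gave 2.875 in the control. For nrde-1 they were 26, 42 and 36 in total RNA and 76, 46 and 54 in the IPs, with ratios of 2.86 (1.81 to 4.65), 1.26 (0.809 to 1.958) and 1.55 (1.000 to 2.44). For both genes the IP counts were above the total counts within each genotype, but nrde-1 in susi-2 differed by less than its counting error. The direction for nrde-1 in susi-3 turned to 0.909 when scaled to protein-coding sense counts, and its control ratio was 1.80 with TMM scaling, 1.545 with median-of-ratios scaling and 1.247 relative to protein-coding sense counts, all under 2-fold. For nrde-2, sense counts were 322, 549 and 183 in total RNA and 505, 317 and 483 in the IPs. Its libraries overlapped: the susi-2 total library was the highest of the 6 by count and by CPM, and the ratios were 1.53 (1.33 to 1.77), 0.663 (0.575 to 0.763) and 2.73 (2.30 to 3.26). The nrde-2 ratio changed direction with the scaling in 2 genotypes, the control (0.669 to 5.19) and susi-2 (0.554 to 4.35), but not in susi-3 (1.60 to 18.75). In the fit over the 3 pairs nrde-3 and nrde-4 were higher in the IP at an edgeR adjusted p under 0.05, where 26.7% of 13634 genes were higher and 20.3% lower (26.1% and 29.6% with TMM). For nrde-4 the log2 difference was 1.57 ± 0.553 (SE), with an edgeR adjusted p of 0.0118 (0.00487 to 0.243 over the alternatives, the highest without susi-3). For nrde-1 and nrde-2 it was 0.82 ± 0.555 and 0.49 ± 0.542, with edgeR adjusted p of 0.223 and 0.477.

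Set against all genes, the calls on the sense strand were common. In the control, nrde-1, nrde-3 and nrde-4 were called higher in the IP, where 43.7% of 9193 tested genes were (28.4% with TMM scaling, which centres the bulk of genes and leaves nrde-3 and nrde-4 past 2-fold) and 17.2% were called lower (23.9% with TMM). In susi-2 only nrde-3 of the 4 was, against 19.9% of 8655 genes higher and 28.1% lower (17.8% and 30.9% with TMM). In susi-3 nrde-2, nrde-3 and nrde-4 were, against 29.1% of 8451 genes higher and 24.5% lower (25.5% and 27.8% with TMM). With 4 genes such counts say little beside the background. The nrde-3 log2 ratios of 6.89, 5.15 and 6.18 stand beside all-gene medians of 0.78, −0.20 and 0.14.

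**Figure D2:**
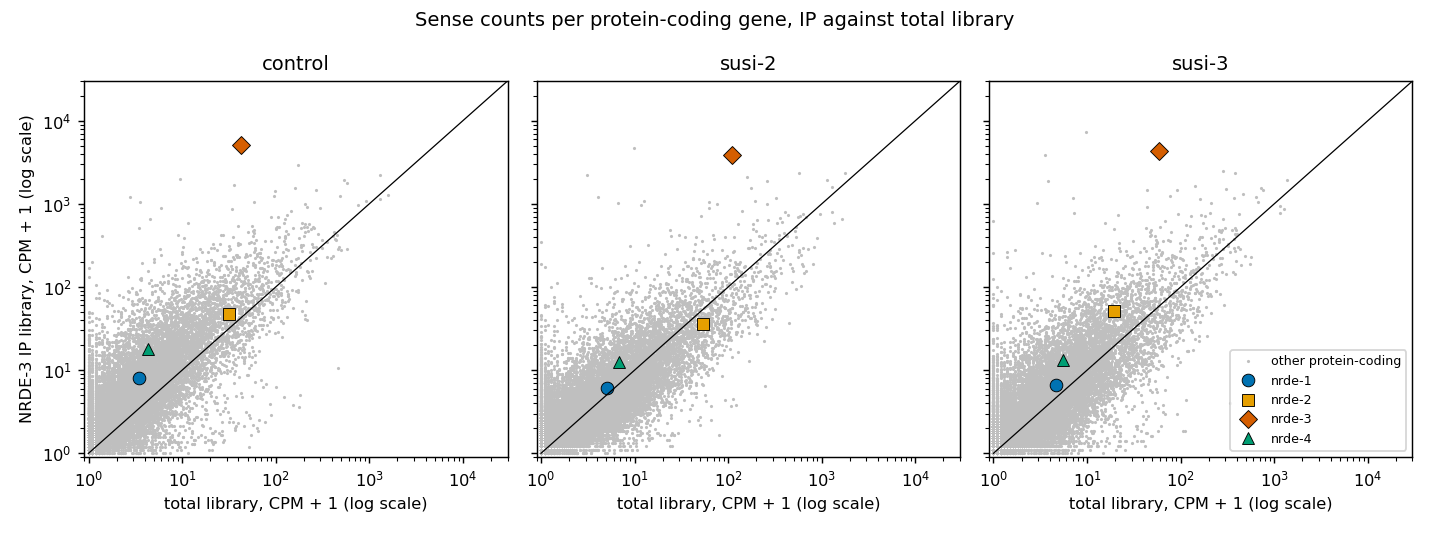
Sense counts of protein-coding genes in the total library (x axis) and the NRDE-3 IP library (y axis) of each genotype, in CPM + 1 on log scales; grey points are genes with at least 50 counts over all libraries and strands, the diagonal marks equal levels. The nrde-3 point lies far above the diagonal in all 3 panels, while nrde-1, nrde-2 and nrde-4 lie within the cloud of other genes.

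The other abundant mRNA fragments of the control IP show how nrde-3 compares. The 5 protein-coding genes with the most sense counts there were nrde-3 with 55056, rack-1 (a ribosome-bound scaffold protein) with 31242, anc-1 (a giant nuclear anchorage protein) with 23944, sdc-2 (an X chromosome dosage compensation protein) with 21245 and eef-2 (translation elongation factor) with 20814. In the control total library rack-1, anc-1 and eef-2 were already abundant, with 1798, 13686 and 5689 counts, whereas sdc-2 had 89. In the mutant IPs sdc-2 had 42249 (susi-2) and 70029 (susi-3) sense counts and stood above nrde-3. In log2 ratio of IP to total in the control, 10 protein-coding genes stood above nrde-3. The highest was mob-4, a Mob family kinase regulator, with 12967 counts against 19, followed by the collagen gene col-140 with 4442 against 4. High recovery of sense fragments was therefore not confined to the tagged gene.

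Antisense counts gave a different picture, in which nrde-3 and nrde-2 were the rich members in total RNA and nrde-3 alone was rich in the IPs. On nrde-3 there were 3292, 1114 and 2274 antisense counts in total RNA, at ranks 58, 80 and 58 among protein-coding genes by count. In the IPs there were 5508, 6920 and 2539, at ranks 11, 5 and 14. As levels these were 313, 106 and 231 CPM in total RNA and 512, 759 and 267 CPM in the IPs. The susi-2 libraries were the lowest in total RNA and the highest in the IPs. The IP-to-total ratio was 1.64 (1.57 to 1.71) for the control, 7.13 for susi-2 (6.69 to 7.60) and 1.16 for susi-3 (1.09 to 1.22), and it stayed above 1 under all 5 other scalings tried. The ratio of susi-2 was 4.36 times that of the control (4.04 to 4.71), while that of susi-3 was 0.707 times (0.658 to 0.759). The first value was 1.19 with TMM, 1.225 with median-of-ratios scaling and 1.26 relative to protein-coding antisense counts. Without rRNA it was 4.80 and by microRNA counts 8.46, so its size depended on the scaling. The second was 0.493 to 0.8565, except for 1.43 with microRNA scaling.

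Antisense counts on nrde-2 went the other way between total RNA and IP. They were 1188, 719 and 809 in the total libraries of the control, susi-2 and susi-3, at ranks 197, 139 and 191, and 81, 224 and 40 in the IPs. Every IP library was thus below every total library for this gene, and the share of all genes separated in this way was not counted. The ratios were 0.0666 (0.0525 to 0.0835), 0.358 (0.306 to 0.416) and 0.0512 (0.0363 to 0.0703), all lower in the IP, although scaling by microRNA counts turned the susi-2 ratio to 2.35. The susi-2 ratio was 5.37 times that of the control (4.095 to 7.03), but 1.47 times with TMM, 1.51 times with median-of-ratios scaling and 1.56 times relative to protein-coding antisense counts. Without rRNA it was 5.91 times and by microRNA counts 10.4 times.

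The remaining genes had few antisense reads. On nrde-1 there were 86, 58 and 58 antisense counts in total RNA and 12, 62 and 15 in the IPs, so that the susi-2 IP stood with the total libraries and the other IPs stood below them. Its IP-to-total ratios were 0.136 (0.0678 to 0.251), 1.23 (0.844 to 1.79) and 0.268 (0.141 to 0.479). Scaling by microRNA counts turned the susi-3 value to 1.84, and TMM scaling turned the susi-2 value to 0.823. On nrde-4 there were 70, 50 and 36 in total RNA and 24, 38 and 23 in the IPs, with ratios of 0.335 (0.202 to 0.540), 0.872 (0.557 to 1.36) and 0.661 (0.374 to 1.15). The direction for nrde-4 rests on the scaling in all 3 genotypes, with values of 0.538 to 1.13 in the control, 0.585 to 5.73 in susi-2 and 1.13 to 4.54 in susi-3 under the other scalings.

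In the fit over the 3 pairs nrde-2 was the one member whose antisense counts differed at an edgeR adjusted p under 0.05, where 17.4% of 9550 genes were higher in the IP and 26.6% lower (28.2% and 24% with TMM). Its log2 difference, IP minus total, was −3.26 ± 0.833 (SE), with an edgeR adjusted p of 0.000488, lower in 3 of 3 pairs. The adjusted p was 0.0805 without the control pair and 0.0677 without the susi-3 pair. For nrde-3 the difference was 1.22 ± 0.637, with an edgeR adjusted p of 0.107 that became 0.0342 without susi-3 (0.0342 to 0.577 over the alternatives). For nrde-1 and nrde-4 it was −1.48 ± 0.911 and −0.78 ± 0.856, with edgeR adjusted p of 0.175 and 0.462, and without susi-2 that of nrde-1 was 0.00177.

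Most genes had a lower antisense share in the control IP than in total RNA. By the 2-fold rule nrde-1, nrde-2 and nrde-4 were called lower there, as were 70.8% of 5281 tested genes, while 11.9% were called higher (46.1% lower and 17.9% higher with TMM, where nrde-4 at 0.821 was not 2-fold lower). In susi-3 nrde-1 and nrde-2 were called lower, against 65.8% of 4219 genes lower and 15.0% higher (54.4% and 19.2% with TMM). In susi-2 nrde-2 was called lower and nrde-3 higher, against 31.7% lower and 31.4% higher of 5574 genes (40% and 25.6% with TMM). The share of members called lower is thus near that of all genes. The log2 ratios of nrde-3 were 0.71, 2.82 and 0.21, against all-gene medians of −1.82, −0.09 and −1.72, so that nrde-3 lay 2.53, 2.91 and 1.93 above the bulk. By rank nrde-3 was 594 of 4543 protein-coding genes in the control, 570 of 4751 in susi-2 and 770 of 3423 in susi-3.

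**Figure D3:**
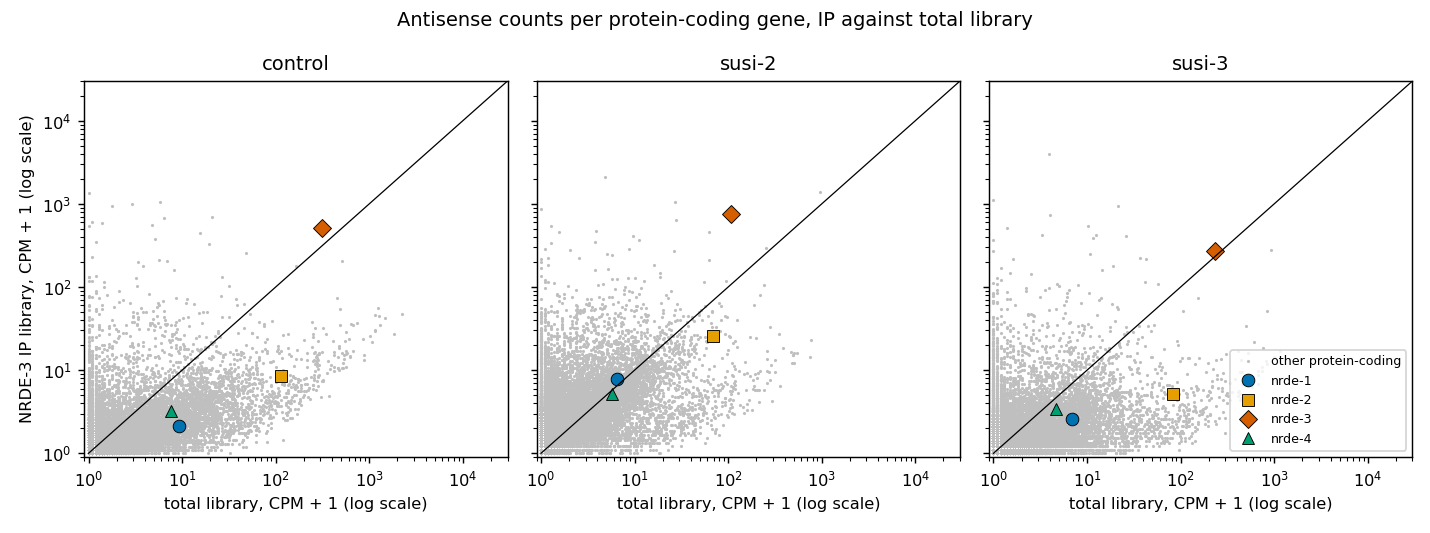
Antisense counts of protein-coding genes in the total library (x axis) and the NRDE-3 IP library (y axis) of each genotype, in CPM + 1 on log scales, drawn as for the sense strand. The nrde-3 point lies on or above the diagonal in all 3 panels (IP-to-total ratios of 1.64, 7.13 and 1.16), while nrde-2 lies below it (0.0666, 0.358 and 0.0512).

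Few genes rich in antisense reads in total RNA had an IP-to-total ratio above 1. Genes were picked by their count in total RNA, which is also the denominator of the ratio, so the choice favours low ratios. A threshold of 1000 antisense counts in the total library, chosen after the values were seen, held 225 protein-coding genes in the control, 94 in susi-2 and 156 in susi-3, and their median IP-to-total ratios were 0.0309, 0.0389 and 0.0143. In the control 2 of the 225 had a ratio above 1: nrde-3 and, at 1.09, unc-119, a neuronal gene often used to mark transgenes in worms. In susi-2 these were nrde-3, F43E2.6 at 1.44 and Y47H10A.5 at 1.17, and in susi-3 nrde-3 was the only one. These counts rest on the scaling: over the other scalings they were 2 to 3 in the control, 1 to 14 in susi-2 and 1 to 4 in susi-3, with F43E2.6 above 1 in the control and fbxa-136 and unc-119 in susi-3 when scaled to protein-coding antisense counts. On nrde-3 the ratio was the highest of these genes in every genotype. With a threshold of 500 counts it ranked 2 in each, and with 300 it ranked 4, 2 and 5. Antisense counts on unc-119 were 1705, 645 and 1514 in total RNA and 1908, 1917 and 683 in the IPs, so that here too susi-2 was lowest in total RNA, and the susi-2 and control IPs had nearly equal counts. The labels do not say whether unc-119 sequence was introduced with the fusion.

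The strand balance joins both readouts. Of the counts on nrde-3 in total RNA, antisense reads were 88.2% (87.1 to 89.2) for the control, 49.3% for susi-2 (47.2 to 51.4) and 79.9% for susi-3 (78.4 to 81.4). In the IPs they were 9.10% (8.87 to 9.33), 16.2% (15.9 to 16.6) and 5.87% (5.65 to 6.09). On nrde-2 the share was 78.7%, 56.7% and 81.6% in total RNA and 13.8%, 41.4% and 7.65% in the IPs. On nrde-1 it was 76.8%, 58.0% and 61.7%, then 13.6%, 57.4% and 21.7%. On nrde-4 it was 66.7%, 45.05% and 45%, then 11.8%, 26.6% and 16.7%. The share was lower in the IP than in the total library for all 4 genes in each genotype, although for nrde-1 in susi-2 the values are equal within counting error. Over all protein-coding genes it was 54.1%, 28.2% and 39.0% in total RNA and 14.1%, 26.5% and 14.6% in the IPs. In total RNA each nrde gene was thus above this value in each genotype, although the interval of nrde-4 in susi-3 (33.9 to 56.5) includes it. In the IPs nrde-3 was below the value over all protein-coding genes in each genotype. Of the other nrde genes, only nrde-1 and nrde-2 in susi-2 (above) and nrde-2 in susi-3 (below) had intervals that exclude it. Antisense reads were 0.115% of the control IP counts on rack-1, the next most abundant gene after nrde-3.

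**Figure D4:**
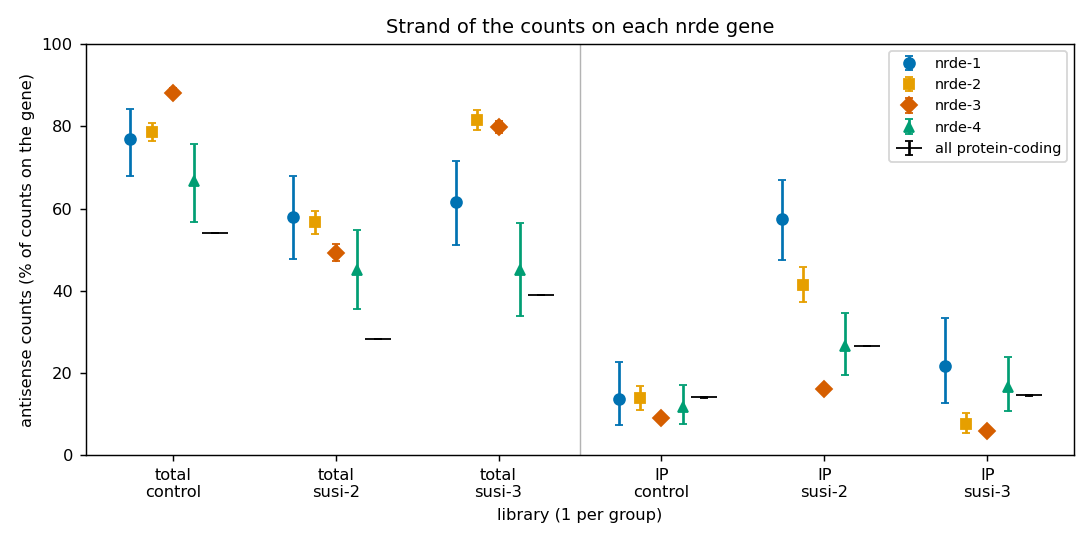
Antisense counts as a percentage of all counts on each nrde gene, per library, with 95% Clopper-Pearson intervals; black dashes give the value over all protein-coding genes. For nrde-3 the value is 49.3 to 88.2% in total RNA and 5.87 to 16.2% in the IPs, and the susi-2 IP is the highest IP for all 4 genes.

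The mutants were then compared with the control within each kind of library. Both mutants are set against the same control library, so a high or low control value enters both comparisons. In total RNA of susi-2, sense counts were higher on nrde-3 by a ratio of 2.60 (2.33 to 2.91), on nrde-4 by 1.75 (1.14 to 2.73) and on nrde-2 by 1.71 (1.49 to 1.97), while the interval for nrde-1 (1.62, 0.971 to 2.76) includes 1. Only nrde-3 was called higher, as were 15.7% of 8350 genes, with 8.59% lower (8.25% and 12.1% with TMM). The all-gene median log2 ratio was 0.44, and nrde-3 lay 0.92 above it at rank 444 of 6699 protein-coding genes. The other scalings gave nrde-3 ratios of 1.71 to 2.78, under 2-fold with median-of-ratios scaling and relative to protein-coding sense counts. Antisense counts on nrde-3 in the same library pair moved oppositely, at a ratio of 0.340 (0.317 to 0.364), and nrde-3 was the only member called lower, as were 25% of 5362 genes, with 3.94% higher (8.71% and 8.02% with TMM). The all-gene median was −0.60, and nrde-3 lay 0.95 below it, with 358 of 4588 protein-coding genes lower still. Antisense ratios of nrde-1, nrde-2 and nrde-4 were 0.677 (0.477 to 0.956), 0.608 (0.553 to 0.667) and 0.717 (0.489 to 1.05), within 0.20 log2 units of that median. Scaled to protein-coding antisense counts these 3 stood above 1, at 1.34, 1.20 and 1.42, and nrde-3 at 0.672, and with TMM nrde-3 was at 0.519, neither 2-fold lower.

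In total RNA of susi-3 none of the 4 genes was called on either strand. On the sense strand 10.3% of 8075 genes were called higher and 8.02% lower (6.85% and 11% with TMM), and on the antisense strand 5.48% of 5460 were called higher and 18.5% lower (9.25% and 4.69% with TMM). The nrde-2 sense ratio of 0.607 (0.504 to 0.730) was below 1 under all scalings (0.452 to 0.594) and lay 0.92 log2 units below the all-gene median of 0.23, with 292 of 6376 protein-coding genes lower. Sense counts on nrde-3 were at 1.38 (1.22 to 1.57), on nrde-1 at 1.48 (0.869 to 2.55) and on nrde-4 at 1.34 (0.842 to 2.16). The antisense ratios were 0.720 for nrde-1 (0.507 to 1.02), 0.727 for nrde-2 (0.664 to 0.796), 0.738 for nrde-3 (0.699 to 0.779) and 0.549 for nrde-4 (0.357 to 0.833), near the all-gene median of −0.56 on the log2 scale, which is a ratio below 1 for the bulk of genes. With TMM scaling those of nrde-1, nrde-2 and nrde-3 turned to 1.01, 1.02 and 1.04.

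**Figure D5:**
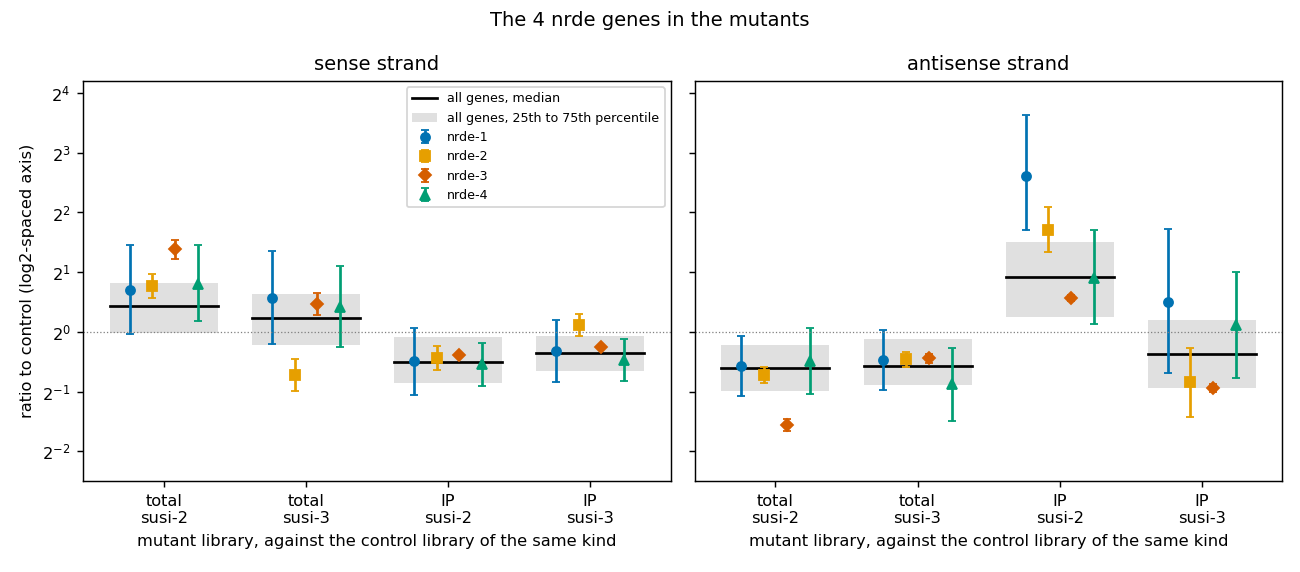
Ratio of each mutant library to the control library of the same kind for the 4 nrde genes, on a log2-spaced axis, with exact 95% intervals for counting error. Black lines give the median and grey boxes the 25th to 75th percentile over all genes tested. Points are ratios of shares, whereas lines and boxes are from CPM + 1, which draws low counts towards 1. For nrde-1 antisense counts in the susi-2 IP the point is at 6.09, and its log2 ratio of CPM + 1 is 1.88. The nrde-3 points of total RNA in susi-2 lie outside the boxes on both strands (2.60 sense, 0.340 antisense), and most other points lie within them.

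In the IP of susi-2 the sense ratios of the 4 genes were alike and followed the bulk. They were 0.714 for nrde-1 (0.484 to 1.04), 0.740 for nrde-2 (0.641 to 0.853), 0.765 for nrde-3 (0.755 to 0.775) and 0.688 for nrde-4 (0.535 to 0.8798), within 0.11 log2 units of the all-gene median of −0.50. None was called, where 4.54% of 8731 genes were called higher and 16.9% lower (5.55% and 10.0% with TMM), and scaling by microRNA counts turned all 4 above 1. Antisense counts were higher on all 4 genes, and nrde-1 (6.09, 3.25 to 12.4) and nrde-2 (3.26, 2.52 to 4.26) were called higher. In this pair 45.8% of 4436 genes were called higher and 5.34% lower, but 14.5% and 20.5% with TMM, which moved the all-gene median log2 ratio from 0.92 to −0.11. Relative to the main median nrde-1 lay 0.96 and nrde-2 0.66 above, while nrde-4 (1.87, 1.09 to 3.25) and nrde-3 (1.48, 1.43 to 1.54) lay 0.24 and 0.35 below. The nrde-3 ratio turned to 0.619 with TMM, 0.609 with median-of-ratios scaling and 0.850 relative to protein-coding antisense counts. That of nrde-4 turned to 0.780 with TMM and 0.768 with median-of-ratios scaling. The nrde-2 ratio was under 2-fold with some other scalings: 1.36 with TMM, 1.34 with median-of-ratios scaling and 1.87 relative to protein-coding antisense counts. Those of nrde-1 were 2.55, 2.51 and 3.49. The highest values over the other scalings were 6.70 for nrde-2 and 12.5 for nrde-1.

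In the IP of susi-3 sense ratios were 0.804 for nrde-1 (0.556 to 1.15), 1.08 for nrde-2 (0.953 to 1.23), 0.837 for nrde-3 (0.827 to 0.848) and 0.723 for nrde-4 (0.567 to 0.918), and none was called, against 3.22% of 8610 genes higher and 9.04% lower (3.82% and 4.82% with TMM). The all-gene median log2 ratio was −0.36, and nrde-2 lay 0.47 above it. The nrde-3 ratio turned above 1 with median-of-ratios (1.07) and microRNA (1.49) scaling, that of nrde-1 likewise (1.02 and 1.435), and that of nrde-4 with microRNA scaling (1.29). Of the 4 genes, nrde-2 and nrde-3 had at least 50 antisense counts over this pair. Their antisense ratios were 0.559 (0.373 to 0.826) and 0.522 (0.497 to 0.547), below 1 under each of the scalings tried, and neither was called, against 11.8% of 2823 genes higher and 23.0% lower (12.3% and 26.5% with TMM). The nrde-1 counts of 15 against 12 and nrde-4 counts of 23 against 24 could not show a difference at this depth.

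Other genes of the pathway were described from lists that were chosen with earlier results of these data known. The lists share some members, such as the nuclear Argonaute gene hrde-1. Of 19 matched genes of nuclear silencing other than the nrde genes, 14 could be compared between control IP and total on the sense strand, and 11 were at least 2-fold higher and none lower, with a median log2 ratio of 1.72 against 0.78 for all genes. Among all genes tested 43.7% were called higher, and among protein-coding genes 50.9%. With TMM the share of all genes was 28.4%, and 8 of 14 genes of this list, 9 of 16 amplification, 5 of 15 ERI, 7 of 12 ribosomal siRNA and 6 of 15 abundant mRNA genes were higher. Among them ama-1, the large subunit of RNA polymerase II, had a ratio of 3.80 and emb-4, an intron-binding helicase, 3.09. Of 17 genes of siRNA amplification 16 could be compared, and 12 were higher and none lower (median 1.94), with drh-3, a helicase of the RNA-dependent RNA polymerase complex, at 23.2 and mut-16, a Mutator focus scaffold, at 7.37. Of 16 genes of the ERI complex and primary RNAi, 9 of 15 were higher and 1 lower (median 1.17), with dcr-1 (Dicer) at 4.27 and rsd-2 at 2.24. Of 14 genes linked to ribosomal siRNA and the exosome, 10 of 12 were higher (median 1.65), with riok-1 at 4.44 and dis-3, an exosome nuclease, at 4.03. The list called abundant mRNAs here was drawn up under the name of mRNA carried in the IP, so it is not a neutral set. It also holds unc-119, which had 61 sense and 1705 antisense counts in the control total library. Of the 15 genes of this list, 10 were higher (median 1.36), with eef-2 at 3.58 and eef-1A.1 at 2.56. The nrde-3 ratio of 122 lay above each of these named genes. In susi-2 the same lists, in this order, had 2 of 13, 5 of 15, 2 of 14, 5 of 10 and 2 of 15 genes higher in the IP. There 19.9% of all genes were higher, and 1 ERI gene and 4 abundant mRNA genes were lower. In susi-3 they had 7 of 12, 8 of 13, 5 of 13, 6 of 12 and 3 of 15 higher, against 29.1% of all genes, with 1 ERI gene and 2 abundant mRNA genes lower.

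Among the other 19 matched Argonaute genes, 15 of 18 were at least 2-fold higher in sense counts in the control IP, with a median log2 ratio of 2.16, against 43.7% of all genes and 50.9% of protein-coding genes. With TMM 15 of 18 were higher, against 28.4% of all genes. In susi-2 6 of 17 Argonaute genes were higher and 2 lower, against 19.9% of all genes higher. In susi-3 10 of 16 were higher and none lower, against 29.1% of all genes higher. The most abundant of them, the microRNA Argonaute gene alg-1, had 312, 478 and 325 sense counts in total RNA and 1487, 802 and 1044 in the IPs, a ratio of 4.66 in the control. Its antisense counts were 40, 274 and 415 in total RNA and 388, 9644 and 2056 in the IPs, so that both mutants lay above the control in both kinds of library, unlike nrde-3. The control IP-to-total ratio of these antisense counts was 9.48. On the antisense strand 10 of 12 Argonaute genes, 13 of 15 nuclear silencing genes and 13 of 13 amplification genes were at least 2-fold lower in the control IP than in total RNA, against 70.8% of all genes. With TMM 6 of 12, 8 of 15 and 10 of 13 were, against 46.1%. Their median log2 ratios were −2.03, −2.43 and −2.71 against −1.82 for all genes. The ERI list had 9 of 13 lower and 1 higher (median −1.62), the ribosomal siRNA list 9 of 10 lower (−1.91) and the abundant mRNAs 3 of 9 lower (−0.42).

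In the antisense comparison of the susi-2 IP with the control IP, 7 of 12 nuclear silencing genes, 10 of 12 amplification genes, 7 of 12 Argonaute genes, 4 of 10 ERI genes and 4 of 6 ribosomal siRNA genes were at least 2-fold higher and none lower, where 45.8% of all genes were higher. Their medians were 1.11, 1.16, 1.06, 0.82 and 1.42 against 0.92 for all genes. Of the abundant mRNAs 10 of 11 were higher, with a median of 1.47. With TMM 1, 0, 2, 0 and 2 genes of the 5 pathway lists and 3 abundant mRNAs were higher, against 14.5% of all genes. In the susi-3 IP the same 5 pathway lists had medians of −0.45, −0.71, −1.24, −0.25 and 0.36 against −0.37, from 11, 7, 8, 6 and 3 genes. Of these, 1, 0, 1, 0 and 1 were higher, against 11.8% of all genes, and 3, 1, 5, 0 and 0 lower, against 23.0%. In total RNA of susi-2 the antisense medians of these lists were −0.58, −0.66, −0.55, −0.59 and −0.63 against −0.60. The nrde-3 value of −1.55 there was below the lowest member of each of these 5 lists, the lowest being −1.28 in the ribosomal siRNA list.

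Genes with the most similar course over the 6 libraries were picked by the smallest root mean square (RMS) difference of centred log2 profiles, as a description. For nrde-3 sense fragments the nearest of 6071 genes were R06C7.2 (0.56 log2 units, 1, 3 and 0 counts in total RNA and 2119, 914 and 684 in the IPs), the GATA factor gene elt-6 (0.60), gex-4 (0.62), C05D11.1 (0.62) and the snoRNA gene M163.14 (0.63). Of these C05D11.1 had the most counts, 370, 637 and 417 in total RNA and 18055, 9590 and 14017 in the IPs. The other 3 genes had much nearer neighbours: mars-1, a methionyl-tRNA synthetase gene, for nrde-1 (0.05), mnk-1, a kinase gene, for nrde-2 (0.12) and emb-5, the Spt6 elongation factor gene, for nrde-4 (0.07). On the antisense strand, out of 3078 genes, the nearest to nrde-3 were the histone gene his-73 (0.24), smg-6, a nuclease gene of nonsense-mediated decay (0.28), and cla-1, an active zone protein gene (0.31). For nrde-2 the nearest were a transposon feature (0.16), cls-2, a CLASP family gene (0.20), and F43G6.4 (0.21). For nrde-1 C05C10.2 was nearest (0.08) and for nrde-4 the splicing factor gene prp-6 (0.10).

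The nrde-4 counts are sums over 4 transcript features, which had 8, 7, 17 and 3 sense counts in the control total library and 52, 39, 50 and 39 in the control IP. The other 3 genes have 1 feature each. In the RefSeq table (assembly WBcel235, which may not be the build used for the counts) the span of nrde-4 overlaps cima-1 and the end of nrde-1 overlaps sike-1, and the strand of these genes is not in the table. Counts on sike-1 were 0 in all libraries on both strands. Those on cima-1 were 10 to 25 sense and 2 to 16 antisense per library, and reads from a stretch shared with nrde-4 cannot be told apart.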

How the data were processed

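The deposited tables hold, per the file headers, 2 raw counts for each transcript feature, 1 for reads of its own strand and 1 for reads of the other. The submitters' processing notes name Bowtie2. The settings, build, annotation and handling of multiply matching reads are not given in these sources. RNA was treated with phosphatase and then with kinase and 1 mM ATP, and 17 to 30 nt inserts were sequenced, per the labels' protocols. Of 961 pairs of transcripts of 1 gene with at least 100 sense counts, 21 had equal counts. The 56377 features were summed to 45510 genes by the identifiers in the tables (43622 with a symbol in the reference table). Blank cells (5) were read as 0, and 3 features without a gene (41 to 122 counts per library) were left out.

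Totals were 10512324, 10471072 and 9842186 (total RNA of control, susi-2, susi-3) and 10755494, 9122066 and 9507040 (IPs), so that 1 count was 0.0930 to 0.110 CPM, and the limit for 0 counts (3 counts) was 2.79e-05% to 3.29e-05% of a library. Counts have exact Poisson intervals, percentages Clopper-Pearson intervals, ratios of 2 shares the exact conditional interval of the 2 counts, and ratios of 2 ratios an approximate log-scale interval from 4 counts. Calls need at least 50 counts over 2 libraries and a log2 ratio of CPM + 1 of at least 1 in size. Alternatives were TMM (edgeR 4.0.16), median-of-ratios (DESeq2 1.42.0), scaling without rRNA, by protein-coding counts of 1 strand or by microRNA counts, other pseudocounts, other count minimums, and single transcripts. IP against total over the 3 genotypes was fitted with edgeR (genotype plus kind of library, library totals as offsets, genes with at least 50 counts over 6 libraries), added after seeing the data, with DESeq2, TMM, no block and each genotype left out as alternatives. It treats genotypes as blocks, pools the spread over genes and tests no genotype difference, so its p-values do not measure spread among replicate animals. Each SE given is the size of the log2 difference divided by the square root of its F statistic. No other test was run. Calculations used Python 3.11.15 and SciPy 1.17.1 and were tested on simulated data.

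Genes named are the 4 nrde genes, the 5 with the most sense counts in the control IP, the 2 members of each list with the highest mean sense CPM, and the nearest genes in pattern (profiles with at least 300 counts). Others (mob-4, col-140, unc-119, F43E2.6, Y47H10A.5, fbxa-136, hrde-1) were named after their values were seen. The members and lists were chosen with earlier results of these data known. Among listed genes exos-5, exos-6, exos-10 and prg-2 matched no symbol. Sequences of the genes and transcript lengths were not used here.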

Additional observations from a re-analysis of the deposited data

Results flagged for a closer look

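For 4 genes the mutant-to-control ratio lay on opposite sides of 1 in total RNA and in the IP, with both counting intervals off 1. Each rests on 1 library per group, and the difference between the kinds of library was not tested. The share of all genes that meet the same rule was not counted, so the number of members says nothing particular about them. On the sense strand, susi-2 was above the control in total RNA and below it in the IP for nrde-2 (1.71 and 0.740), nrde-3 (2.60 and 0.765) and nrde-4 (1.75 and 0.688), and susi-3 likewise for nrde-3 (1.38 and 0.837). On the antisense strand, susi-2 was below the control in total RNA and above it in the IP for nrde-1 (0.677 and 6.09), nrde-2 (0.608 and 3.26) and nrde-3 (0.340 and 1.48). The all-gene medians had the same signs: 0.44 and −0.50 on the log2 scale for susi-2 sense counts, 0.23 and −0.36 for susi-3 sense counts, and −0.60 and 0.92 for susi-2 antisense counts. Several of these opposite directions do not hold under other scalings. For nrde-3 antisense counts in susi-2 both ratios were below 1 with TMM (0.519 and 0.619) and with median-of-ratios scaling (0.498 and 0.609). For nrde-1 antisense counts in total RNA of susi-2 the ratio was above 1 with TMM (1.03) and relative to protein-coding antisense counts (1.34), where that of nrde-2 was 1.20. For nrde-3 sense counts in susi-3 both were above 1 with median-of-ratios scaling (1.03 and 1.07), and microRNA scaling put the sense IP ratios of nrde-2 (1.52), nrde-3 (1.57) and nrde-4 (1.41) in susi-2, and of nrde-3 in susi-3 (1.49), above 1.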

How the results depend on the processing

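Replicate numbers pair no libraries, since each group has 1, and the mutant comparisons cannot be paired. Genotype pairs IP with total, and the fit with it as a block, added after seeing the data, called 3640 genes higher and 2762 lower for sense and 1662 and 2536 for antisense counts (4938 at an unadjusted p under 0.05). TMM gave 2693 antisense genes higher and turned nrde-4 antisense to a log2 difference of 0.079. Leaving out 1 genotype gave 1763 to 3290 sense genes higher, 1558 to 3503 lower, 619 to 1589 antisense genes higher and 727 to 4615 lower. The extremes were without susi-3 (fewest of each), without control (most sense lower) and without susi-2 (the others), and with 1 residual degree of freedom. With DESeq2, and with no genotype block, these counts were within 1.5 times. Of 54 ratios of the 4 genes with enough counts, 30 kept their direction under all 5 other scalings and 24 did not under at least 1; the cause was not tested. For nrde-3 the values below are in the order IP to total (control, susi-2, susi-3), susi-2 and susi-3 to control in total RNA, then in the IP. Sense ratios with TMM were 76.7, 32.6, 64.3, 2.07, 1.19, 0.882 and 0.996, and relative to protein-coding sense counts 53.2, 29.9, 43.2, 1.72, 1.11, 0.967 and 0.901. Median-of-ratios scaling gave 65.8 in the control, 1.71 and 1.03 in total RNA and 0.970 and 1.07 in the IP. Without rRNA they were 195, 63.2 and 144, and 0.9004 and 0.993 in the IP. By microRNA counts they were 412, 235 and 507, then 1.22 for susi-3 in total RNA and 1.57 and 1.49 in the IP. Antisense ratios with TMM were 4.01, 4.78, 1.98, 0.519, 1.04 and 0.619, with median-of-ratios 4.82, 5.897, 2.64, 0.498, 1.03, 0.609 and 0.564, and relative to protein-coding antisense counts 5.14, 6.496, 2.54, 0.672, 1.09 and 0.850. Without rRNA they were 2.62, 12.6 and 2.25, then 1.74 and 0.618 in the IP, and by microRNA counts 5.54, 46.8 and 7.93, 0.650 for susi-3 in total RNA, and 3.04 and 0.931 in the IP. Called antisense ratios that changed direction were nrde-1 in susi-3 IP to total (1.84) and nrde-2 in susi-2 IP to total (2.35), both by microRNA counts, and nrde-4 in the control IP to total (1.05 by protein-coding and 1.13 by microRNA counts).

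The percentage of all genes past 2-fold, in the same order, was 60.9, 48.0, 53.6, 24.3, 18.3, 21.4 and 12.3 for sense and 82.7, 63.1, 80.8, 28.9, 24.0, 51.1 and 34.7 for antisense counts. A pseudocount of 5 CPM gave sense values of 40.6, 30.9, 9.81, 7.01, 9.15 and 4.83 (susi-3 IP to total moved less) and antisense values of 14.6, 7.93, 21.8 and 16 for the mutants. With a minimum of 1 count they were 30.7, 24.4, 25.8, 11.5, 8.63, 9.76 and 5.77 for sense and 30.3, 28.4, 26.8, 11.2, 9.58, 16.3 and 6.26 for antisense. TMM gave 16.7 and 13.9 for antisense counts in total RNA of susi-2 and susi-3, and a minimum of 200 counts 54.1 for antisense counts in the susi-3 IP. Depth limits nrde-1 and nrde-4 most, with 12 to 86 antisense counts per library.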
